A study of Mus musculus with 11 samples.

Results

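Potassium channel genes were followed in the tibialis anterior, a mostly fast-twitch muscle of the shin, of aged C57BL/6 mice. The genes were taken by name: every row of the gene table whose symbol begins with Kcn, with pseudogene and antisense names left out, gave 62 genes of the 18269 in the table. That rule removed 1 row, the antisense transcript Kcnq1ot1. The 62 genes encode pore-forming subunits of voltage-gated, calcium- or sodium-activated, inward rectifier and 2-pore-domain potassium channels, together with the regulatory subunits that carry a Kcn symbol. Of these, 31 reached 1 CPM (reads of a gene per 1000000 reads counted in that library) in at least 3 libraries and were tested, and 31 stayed under that limit.

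RNA was sequenced from 11 muscles of animals aged 21 to 24 months, all of the same strain and from a study that used an injury model. Saline had been injected in 4 (replicates 2, 3, 4 and 6), serum of young mice in 4 (replicates 1 to 4), and young serum from which extracellular vesicles (EVs, membrane-bound particles released by cells) had been removed in 3 (replicates 2 to 4). Uninjected and young muscle were not analysed here, and the labels give no route, dose or time of injection. Nothing in the labels ties a library to its own animal, so a p-value here speaks of the scatter of these samples, part of which may be technical. Kcnc1 was singled out among the 62 because of its difference between young serum and saline in these same libraries, so its values are given as a description with no test, and all counts of tested members are over the other 30.

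Potassium channels let potassium leave or enter the cell and so set the resting potential and end the action potential. In skeletal muscle fibres inward rectifiers hold the resting potential, ATP-sensitive channels built from Kcnj11 and a sulfonylurea receptor couple metabolism to excitability, and voltage-gated channels repolarise the membrane after each action potential. Channels of the Kcnc (Shaw) family open at strongly depolarised potentials and close fast, and are best known from neurons that fire at high rates. Calcium-activated channels of the Kcnn family are known in muscle for their return after loss of the nerve, while Kcnj8 and Kcnma1 are also prominent in the smooth muscle and pericytes of vessels.

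Stretches before a RefSeq start were sought for Kcnc1, Kcnc4, Kcna7, Kcnma1, Kcnj2 and Kcnj12, and only windows without an annotated exon were printed. Those were the windows of Kcnc1, Kcnj2 and Kcnj12. Kcnc1 stood apart in both serum groups. The other 2, a pair of inward rectifier genes of the same subfamily, showed opposite signs against saline with young serum. Of the 62 genes, 46 had a RefSeq promoter window, 24 of them among the tested. The exon check behind the 3 printed windows was not made over all windows. Each window is the 250 bases before the RefSeq start on GRCm38.p6, on the plus strand for all 3. These are chr7:46396218-46396467 for Kcnc1, chr11:111065914-111066163 for Kcnj2 and chr11:61065554-61065803 for Kcnj12. The Kcnj12 window is not upstream of the whole gene: the RefSeq start it precedes lies 43.2 kb past the start in the gene table, inside the gene. Capitals mark the E-box letters CANNTG, the motif bound by myogenic basic helix-loop-helix factors such as MyoD.
Kcnc1: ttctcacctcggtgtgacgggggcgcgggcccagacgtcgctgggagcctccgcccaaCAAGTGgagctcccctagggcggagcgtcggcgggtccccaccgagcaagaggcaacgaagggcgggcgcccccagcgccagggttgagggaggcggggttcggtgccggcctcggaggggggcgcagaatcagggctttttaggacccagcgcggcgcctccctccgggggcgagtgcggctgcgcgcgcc
Kcnj2: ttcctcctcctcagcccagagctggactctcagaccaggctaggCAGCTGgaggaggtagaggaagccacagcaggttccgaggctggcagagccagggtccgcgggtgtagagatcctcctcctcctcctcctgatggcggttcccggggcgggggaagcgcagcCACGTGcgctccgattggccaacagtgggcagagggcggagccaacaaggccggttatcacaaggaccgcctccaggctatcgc
Kcnj12: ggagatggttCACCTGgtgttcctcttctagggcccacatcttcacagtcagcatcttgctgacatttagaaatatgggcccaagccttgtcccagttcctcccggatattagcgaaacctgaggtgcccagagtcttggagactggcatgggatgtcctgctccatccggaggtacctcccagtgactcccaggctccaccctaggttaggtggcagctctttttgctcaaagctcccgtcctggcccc
Kcnc1 held 1 E-box, starting 192 bases before the start, Kcnj2 held 2, at 206 and 84 bases, and Kcnj12 held 1, at 240 bases. An E-box was present in 66.2% of all 32851 RefSeq windows, searched with the same letters but without the exon check, so having one sets none of the 3 apart. The TATA box letters TATAAA were searched on both strands and were in none of the 3 windows, and 12.4% of all windows held them. The letters CANNTG read the same on both strands. The Kcnc1 window was 74.4% G and C with 30 CG dinucleotides, the Kcnj2 window 65.6% with 14, and the Kcnj12 window 56.0% with 4, against medians of 52.4% and 6 over all windows. The libraries measure RNA and hold no reading of binding at these windows.

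Libraries held from 36380000 to 42240000 counted reads, as read from the step between low values. The spread differed between groups: the median over genes of the within-group SD on the log2 scale was 0.305 with saline, 0.149 with young serum and 0.223 with EV-depleted serum. Markers of skeletal muscle fibres (8 of 8 measured) summed to 112032 to 152198 CPM over the 11 libraries. Neuron markers were near 0, with 2 of 5 in the table and a sum of 1.71 to 4.20 CPM. Saline replicate 4 stood apart in adipocyte markers, which summed to 2859.7 CPM against 81.3 to 341 CPM elsewhere, and saline replicate 6 in slow fibre markers, which summed to 3973 CPM against 184 to 1801 CPM elsewhere. In bulk muscle, fewer cells of a type and less RNA per cell cannot be told apart. Values by library follow one order below: saline replicates 2, 3, 4 and 6, young serum replicates 1 to 4, and EV-depleted serum replicates 2 to 4.

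All 62 genes together took 823, 728, 750.1 and 579.9 CPM with saline, 983, 874, 869 and 931 CPM with young serum and 977, 788 and 901 CPM with EV-depleted serum. The young serum libraries were all above the saline libraries, and the EV-depleted serum libraries overlapped both. Without Kcnc1, which was chosen for this difference, the saline sums were 529 to 762 CPM, the young serum sums 772 to 875 CPM and the EV-depleted serum sums 714 to 873 CPM. The Kcnj family of inward rectifiers gave the largest share with saline, 37.3% of the summed Kcn CPM. The shares of the Kcnb, Kcnc and Kcnq families are not reported here, so the families listed next are not a full ranking. The Kcna (Shaker) family gave 14.0% and the calcium- and sodium-activated genes 6.83%. Silent subunits, which make no channel alone but join others, held 5.28%, the Kcnab beta subunits 2.25% and the 2-pore-domain Kcnk genes 1.21%. Each of the Kcnd, Kcne, Kcnh, Kcnip, Kcnmb and Kcnrg groups held under 1%. The Kcnj share was 33.3% with young serum and 35.3% with EV-depleted serum.

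Levels of different genes were compared as CPM per kb of the gene's merged exons, which is a level and not a difference. With saline the order was led by Kcnj11, the pore of the ATP-sensitive channel, at 46.3 ± 8.17 CPM per kb (SD, n = 4), and Kcna7, a fast-inactivating Shaker channel of striated muscle, at 41.4 ± 7.84. Kcnc4 followed at 25.5 ± 5.31 and the inward rectifier Kcnj12 at 13.1 ± 3.49 CPM per kb. Kcnj2, Kcnj8 and Kcng4 came next at 7.57 ± 1.18, 6.98 ± 2.60 and 6.56 ± 1.56 CPM per kb, and Kcnc1 was 8th of 31 at 6.31 ± 0.838. Kcnn1 stood below it at 4.68 ± 0.499 CPM per kb, and the lowest of the tested was Kcnh7 at 0.0645 ± 0.0133. Of the 30 pairs of neighbours in this order, 4 had saline values that did not overlap, among them Kcna7 over Kcnc4, Kcnc4 over Kcnj12 and Kcnn3 over Kcnh7. The other 26 neighbours overlapped, Kcnc1 and Kcng4 among them. With young serum Kcnc1 was 5th of 31 at 10.4 ± 0.900 CPM per kb, and with EV-depleted serum 6th at 9.35 ± 1.62.

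**Figure D1:**
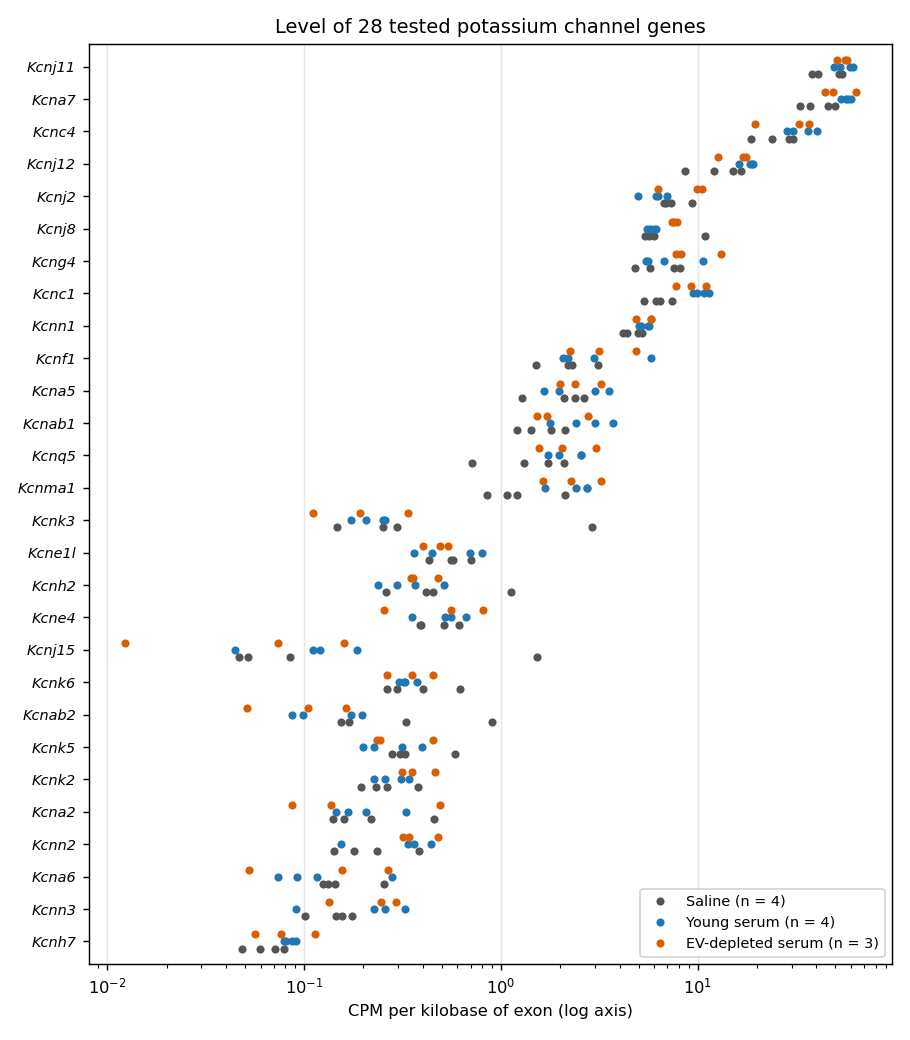
Level of 28 of the 31 tested potassium channel genes in CPM per kb of merged exons on a log axis, with 1 point per library and 1 colour per group (saline n = 4, young serum n = 4, EV-depleted serum n = 3), ordered by the saline mean. Kcnj11, Kcna7 and Kcnc4 lead, and Kcnc1 lies 8th of 31 among neighbours whose saline libraries overlap.

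Of the Kcnc family, Kcnc1 and Kcnc4 were the most abundant. Kcnc1, at chr7:46396497-46438704, plus strand on mm10, stood at 60.8, 57.8, 69.6 and 50.5 CPM with saline, 108, 102, 89.0 and 93.0 CPM with young serum and 104, 73.6 and 87.5 CPM with EV-depleted serum. All 4 young serum and all 3 EV-depleted serum values lay above the highest saline value, that of replicate 4, and the serum groups overlapped each other. The means were 59.7 ± 7.92 CPM with saline, 97.9 ± 8.52 CPM with young serum and 88.4 ± 15.3 CPM with EV-depleted serum (SD, n = 4, 4 and 3). On the log2(CPM + 1) scale the difference from saline was 0.71 ± 0.13 (SE) with young serum and 0.55 ± 0.14 with EV-depleted serum, and young serum minus EV-depleted serum was 0.16 ± 0.14. Among the 31 tested genes this placed Kcnc1 2nd from the top against saline with young serum, after Kcnma1, and 3rd with EV-depleted serum, after Kcnma1 and Kcnq5. These differences chose the gene and stand without a test. Over all the alternative settings they ran from 0.59 to 0.79 with young serum and from 0.43 to 0.75 with EV-depleted serum against saline, and between the sera from -0.01 to 0.28.

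Kcnc4, an A-type member of the family at chr3:107438303-107459552, minus strand, stood at 106, 112, 87.4 and 68.6 CPM with saline, 148, 105, 133 and 112 CPM with young serum and 135, 119 and 71.9 CPM with EV-depleted serum. Its groups overlapped, with saline replicate 6 and EV-depleted serum replicate 4 lowest. The log2 difference was 0.42 ± 0.21 for young serum and 0.19 ± 0.23 for EV-depleted serum against saline, with unadjusted p from limma, a linear model with shared variance across all genes, of 0.0692 and 0.416. Kcnc2 stayed under the filter at 0.152, 0.293, 0.615 and 0 CPM with saline, 0.255, 0.137, 0.261 and 0.281 CPM with young serum and 0.219, 0.0260 and 0.621 CPM with EV-depleted serum. Kcnc4 lay above Kcnc1 in the mean of each group.

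**Figure D2:**
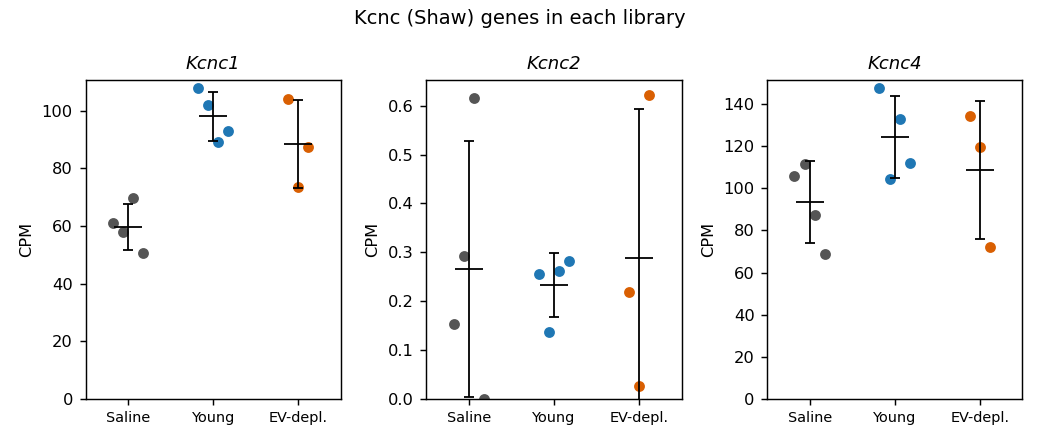
CPM of Kcnc1, Kcnc2 and Kcnc4 in each library, by group, with points for libraries, horizontal lines for means and bars for 1 SD; each panel has its own linear axis from 0. All serum libraries lie above the saline libraries for Kcnc1, while the groups overlap for Kcnc2 and Kcnc4.

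The first comparison asks whether serum of young mice goes with a different level of these genes in aged muscle. In limma with Benjamini-Hochberg adjustment none of the 30 members passed at 0.05, the smallest adjusted p being 0.180, and 0 of 13187 genes in all (0.0%) passed. At an unadjusted p under 0.05 stood 4 of the 30 members (13.3%), Kcna7, Kcnab1, Kcnj12 and Kcnma1, against 21.9% of all genes tested, so the share was not above the background. All 4 were higher with young serum, where 10.5% of all genes were higher at that limit and 11.4% lower. The log2 difference was above 0 in 20 of 30 members (66.7%) and in 47.5% of all genes, and its median was 0.20 in the members and -0.02 in all genes. Values of the groups did not overlap for 2 members (6.67%), Kcna7 and Kcnh7, and for 12.2% of all genes. Without saline replicate 2 the count at unadjusted p under 0.05 was 9 of 30 (30.7% of all genes) and 251 genes passed the adjusted p, Kcnma1 among them, without saline replicate 3 it was 8 (18.4%), and without both saline replicates 4 and 6 it was 1 (9.68%).

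Among the voltage-gated genes Kcna7, at chr7:45405653-45409763, plus strand, stood at 109, 71.7, 100.03 and 80.6 CPM with saline, 123, 116, 131 and 126 CPM with young serum and 139, 106 and 96.4 CPM with EV-depleted serum. Every young serum library was above every saline library, and EV-depleted serum overlapped both. The log2 difference from saline was 0.47 ± 0.15 with young serum (limma unadjusted p = 0.00844, adjusted p = 0.180). Kcnab1, a beta subunit that speeds the inactivation of Shaker channels, stood at 15.4, 18.2, 10.4 and 12.1 CPM with saline, 31.8, 20.7, 15.3 and 25.6 CPM with young serum and 14.8, 13.0 and 23.9 CPM with EV-depleted serum. Young serum replicates 1 and 4 and EV-depleted serum replicate 4 were high, and the groups overlapped. Its log2 difference was 0.68 ± 0.25 (limma unadjusted p = 0.0200, adjusted p = 0.185). Without saline replicate 4, young serum replicate 1 or young serum replicate 4 it was 0.55, 0.52 and 0.62, with limma unadjusted p of 0.0573, 0.0685 and 0.0518. The deposited start of Kcnab1 differs from that of GENCODE M21, and it shares exon sequence with A330015K06Rik on the opposite strand. No source here says whether reads were counted by strand, so the values of such genes are uncertain. Among the tested, Kcna6, Kcnq5, Kcnk2, Kcnk3 and Kcnj15 overlap opposite-strand genes likewise.

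Among the inward rectifiers Kcnj12, at chr11:61022564-61071131, plus strand, stood at 45.4, 33.1, 41.4 and 23.7 CPM with saline, 50.6, 52.6, 44.5 and 52.0 CPM with young serum and 48.4, 34.9 and 46.5 CPM with EV-depleted serum. Saline replicate 6 was the lowest library, and the groups overlapped. The log2 difference was 0.50 ± 0.19 (limma unadjusted p = 0.0195, adjusted p = 0.185), and without saline replicate 6 it was 0.32, with a limma unadjusted p of 0.0459. Kcnma1, the large-conductance calcium-activated channel, at chr14:23289431-24014491, minus strand, stood at 35.7, 18.3, 20.5 and 14.5 CPM with saline, 40.8, 46.2, 28.3 and 46.5 CPM with young serum and 38.5, 27.9 and 54.8 CPM with EV-depleted serum. Saline replicate 6 was lowest and saline replicate 2 reached into the range of both serum groups. Its log2 difference, 0.89 ± 0.28, was the largest of the 31 (limma unadjusted p = 0.00784, adjusted p = 0.180). Without saline replicate 2 it was 1.13 with an adjusted p in limma of 0.047, and without both saline replicates 4 and 6 it was 0.61 with a limma unadjusted p of 0.0755. Smooth muscle and pericyte markers other than Des (6 of 6 measured) summed to 272 to 559.9 CPM with saline, 327 to 402 with young serum and 271 to 426 with EV-depleted serum, and their part in the Kcnma1 values was not tested. Kcnma1 shares exon sequence with 4930519K11Rik on the opposite strand, so its counts are uncertain.

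**Figure D3:**
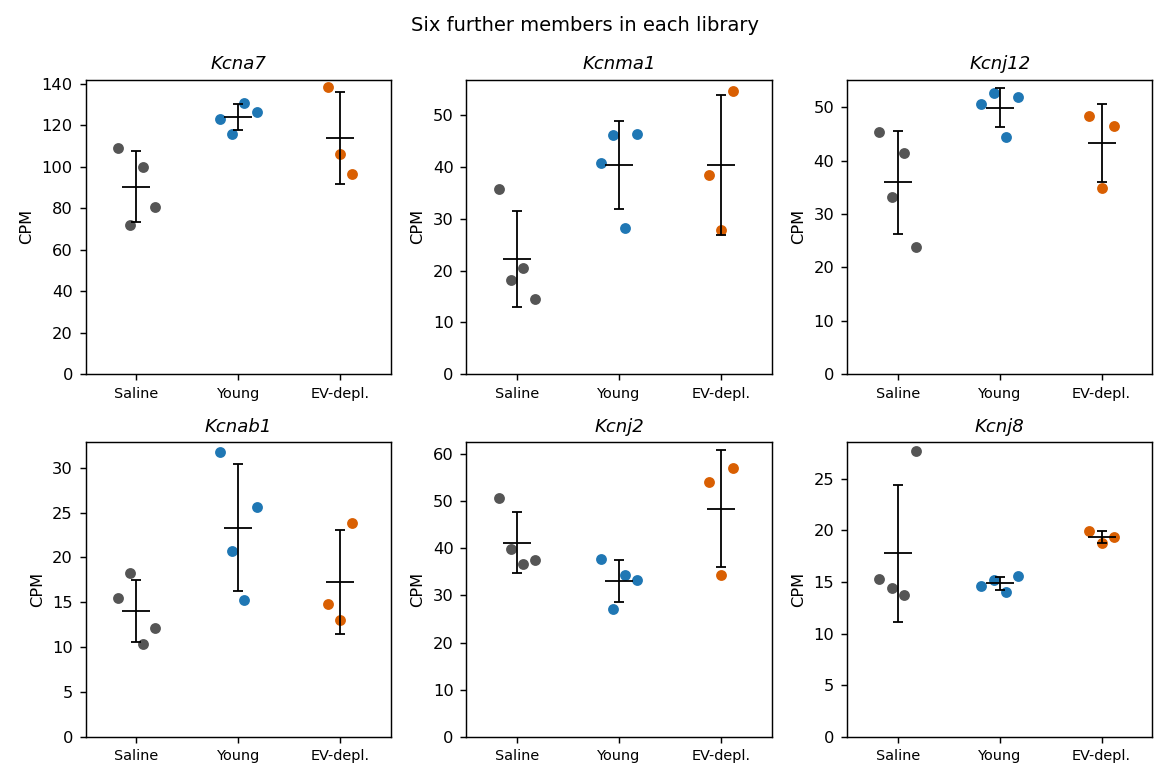
CPM in each library of the members with the smallest unadjusted p, Kcna7, Kcnma1, Kcnj12, Kcnab1 and Kcnj2, and of Kcnj8, by group on linear axes from 0, with points for libraries, horizontal lines for means and bars for 1 SD. Kcna7 with young serum lies above all saline libraries, and Kcnj8 with young serum lies below all EV-depleted serum libraries.

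The second comparison asks the same of young serum without its EVs, and it shares the saline libraries with the first. limma with Benjamini-Hochberg adjustment passed none of the 30 members (smallest adjusted p = 0.403) and 0 of 13187 genes (0.0%). At an unadjusted p under 0.05 stood 2 of 30 members (6.67%), Kcnma1 higher and Kcnab2 lower, against 12.1% of all genes, 6.49% higher and 5.59% lower. The log2 difference was above 0 in 21 of 30 members (70.0%) against 49.6% of all genes, with a median of 0.20 against -0.0025 in all genes. No member had groups without overlap, where 7.42% of all genes did. The count at unadjusted p under 0.05 was 7 without saline replicate 2 (22.0% of all genes), 4 without saline replicate 4 (13.6%) and 5 without EV-depleted serum replicate 4 (5.76%). The log2 difference of Kcnma1 was 0.86 ± 0.30 (limma unadjusted p = 0.0143, adjusted p = 0.403), with means of 40.4 ± 13.6 CPM (SD, n = 3) against 22.2 ± 9.33 CPM (SD, n = 4). Without EV-depleted serum replicate 4 it was 0.62, with a limma unadjusted p of 0.0788.

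Kcnab2, the other beta subunit, stood at 0.940, 0.855, 5.04 and 1.83 CPM with saline, 0.968, 0.550, 1.09 and 0.485 CPM with young serum and 0.583, 0.285 and 0.906 CPM with EV-depleted serum. Saline replicate 4 was high and the groups overlapped. The log2 difference for EV-depleted serum was -0.83 ± 0.36 (limma unadjusted p = 0.0375, adjusted p = 0.408). Without saline replicate 4 it was -0.47 with a limma unadjusted p of 0.0641, and without saline replicate 6, EV-depleted serum replicate 2 or EV-depleted serum replicate 3 that p was 0.0602, 0.0743 and 0.121. Saline replicate 4 also had the highest macrophage and T cell marker sums, 318 CPM against 48.1 to 222 elsewhere (8 of 8 markers measured) and 30.3 CPM against 1.40 to 10.9 (6 of 6), and their part in the Kcnab2 value was not tested. Kcnab2 shares exon sequence with Gm16334 on the same strand.

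The third comparison, young serum against EV-depleted young serum, asks what goes with the presence of EVs, and it shares libraries with both others. limma with Benjamini-Hochberg adjustment passed none of the 30 members or of all 13187 genes (0.0%), with every adjusted p at 0.99998 or above. At an unadjusted p under 0.05 stood 1 of 30 members (3.33%), Kcnj2, against 2.23% of all genes, of which 0.478% were higher and 1.75% lower with young serum. The log2 difference was above 0 in 16 of 30 members (53.3%) against 48.7% of all genes, and the median was 0.02 in the members and -0.0049 in all genes. Groups did not overlap for 1 member (3.33%), Kcnj8, and for 6.11% of all genes. The count at unadjusted p under 0.05 was 3 without saline replicate 6 (4.004% of all genes), 2 without young serum replicate 3 (2.65%) and 0 without EV-depleted serum replicate 2 (1.25%).

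Kcnj2, the classical inward rectifier of the resting muscle membrane, at chr11:111066164-111076821, plus strand, stood at 50.6, 39.9, 36.7 and 37.6 CPM with saline, 37.8, 27.1, 34.3 and 33.2 CPM with young serum and 54.1, 34.2 and 56.9 CPM with EV-depleted serum. EV-depleted serum replicates 4 and 2 were the highest libraries, and the 2 serum groups overlapped. Young serum minus EV-depleted serum was -0.51 ± 0.19 on the log2 scale (limma unadjusted p = 0.0193, adjusted p = 0.99998), and young serum minus saline was -0.31 ± 0.17 (unadjusted p = 0.106). Without young serum replicate 2, EV-depleted serum replicate 2 or EV-depleted serum replicate 4 the first was -0.42, -0.42 and -0.38, with limma unadjusted p of 0.0578, 0.0829 and 0.0928. Its partner in the same subfamily, Kcnj12, had a young serum minus EV-depleted serum difference of 0.21 ± 0.20 (limma unadjusted p = 0.309). Kcnj8, the pore of the vascular ATP-sensitive channel, at chr6:142564837-142571614, minus strand, stood at 15.3, 14.4, 13.7 and 27.7 CPM with saline, 14.6, 15.2, 14.1 and 15.6 CPM with young serum and 19.9, 18.7 and 19.3 CPM with EV-depleted serum. All young serum values were below all EV-depleted serum values, and saline replicate 6 was the highest library. The log2 difference was -0.36 ± 0.20 (limma unadjusted p = 0.101), and without saline replicate 6, which enters through the shared variance, its unadjusted p was 0.00466. EV-depleted serum minus saline was 0.17 ± 0.20 (limma unadjusted p = 0.414), and 0.39 without that library (unadjusted p = 0.00400). In saline replicate 6 the pericyte marker Rgs5 stood at 371 CPM against 117 to 207 CPM elsewhere. The other smooth muscle and pericyte markers did not peak there. Acta2, Myh11, Tagln and Cspg4 were highest in saline replicate 4. Notch3 was highest in young serum replicate 2 and Des in EV-depleted serum replicate 3. The part of these cells in the Kcnj8 values was not tested.

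**Figure D4:**
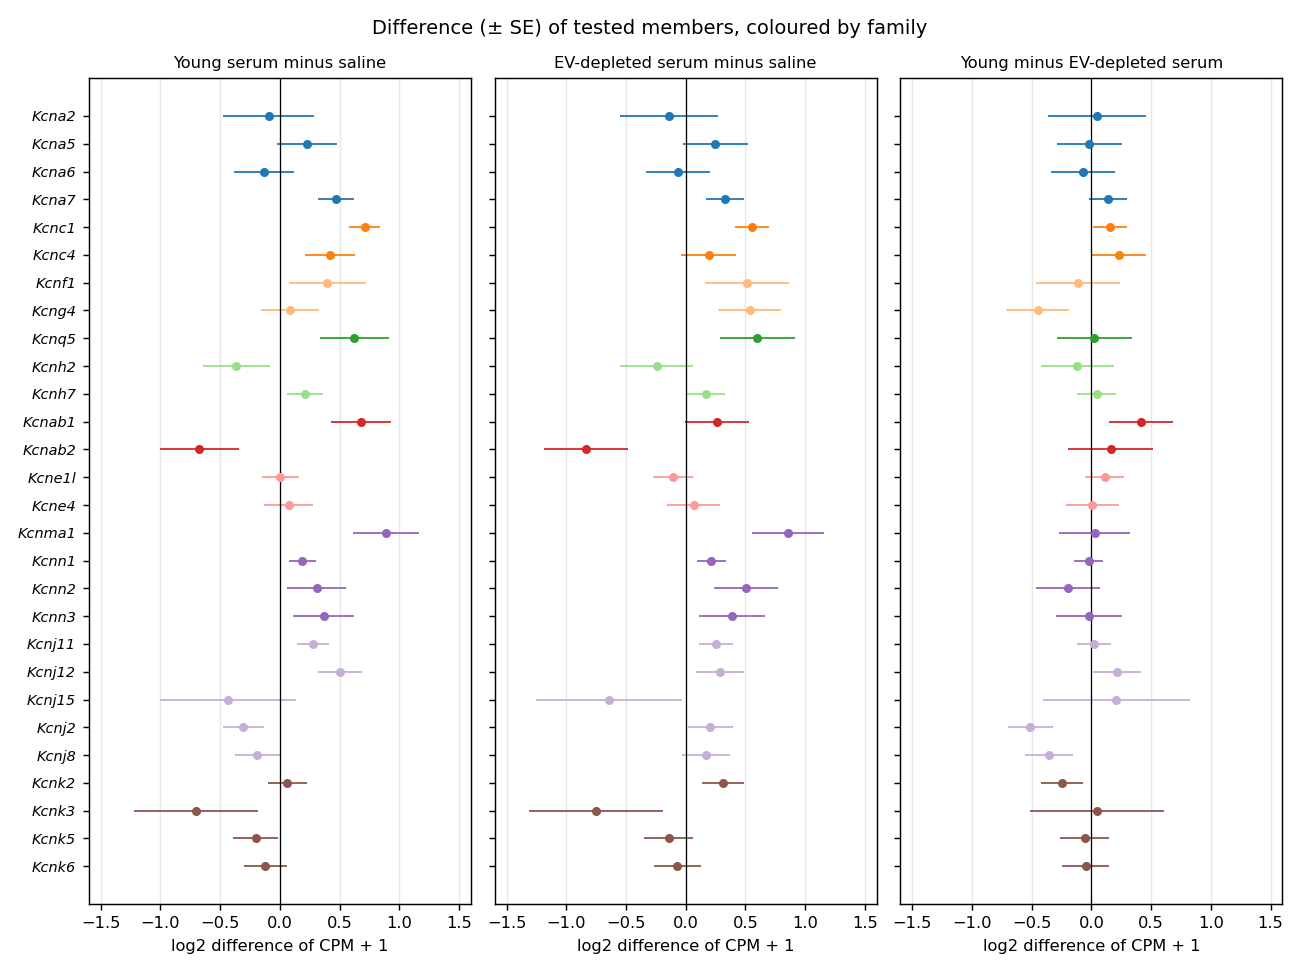
Log2 difference in log2(CPM + 1) of 28 of the 31 tested potassium channel genes for the 3 comparisons, ordered by family, with bars for 1 SE. Kcnma1 and Kcnc1 lie farthest above 0 against saline with young serum, and the young serum against EV-depleted serum differences lie on both sides of 0.

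Kcnj11 and Kcng4 had groups that overlapped in all comparisons. Kcnj11, at chr7:46093953-46100764, minus strand, stood at 199, 192, 149.8 and 139 CPM with saline, 219, 182, 194 and 225 CPM with young serum and 209.6, 188 and 205 CPM with EV-depleted serum. Saline replicate 6 was the lowest library, and the log2 difference was 0.28 ± 0.13 with young serum (limma unadjusted p = 0.0562) and 0.25 ± 0.14 with EV-depleted serum (unadjusted p = 0.0991). Kcng4, a silent subunit, stood at 30.96, 21.8, 28.8 and 18.2 CPM with saline, 20.7, 40.3, 25.7 and 21.2 CPM with young serum and 50.0, 31.1 and 29.6 CPM with EV-depleted serum. EV-depleted serum held the highest mean, and its log2 difference from saline was 0.54 ± 0.26 (limma unadjusted p = 0.0660).

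Of the other voltage-gated members, Kcnq5 averaged 11.2 ± 4.57 CPM with saline, 16.9 ± 3.17 CPM with young serum and 17.0 ± 5.85 CPM with EV-depleted serum (SD, n = 4, 4 and 3). Its log2 difference of 0.62 ± 0.29 with young serum had a limma unadjusted p of 0.0530, and without saline replicate 6 it was 0.35 (unadjusted p = 0.164 in limma). The silent subunit Kcnf1 averaged 10.9 ± 3.15 CPM with saline, 15.6 ± 8.32 CPM with young serum and 16.3 ± 6.29 CPM with EV-depleted serum. Kcna5 averaged 5.99 ± 1.68 CPM with saline, 7.29 ± 2.52 CPM with young serum and 7.22 ± 1.81 CPM with EV-depleted serum, and its groups overlapped. Kcna2, a channel of nerve and of myelinated axons, averaged 2.90 ± 1.74 CPM with saline, 2.52 ± 0.984 CPM with young serum and 2.82 ± 2.60 CPM with EV-depleted serum. Kcna6 averaged 0.972 ± 0.364 CPM with saline, 0.832 ± 0.556 CPM with young serum and 0.938 ± 0.634 CPM with EV-depleted serum. Schwann cell markers (8 of 8 measured) summed to 87.5 to 182 CPM with saline, 77.7 to 182 with young serum and 108 to 228 with EV-depleted serum, and their part in the Kcna2 and Kcna6 values was not tested. Kcnh7, of the ether-a-go-go family, averaged 0.982 ± 0.203 CPM with saline, 1.29 ± 0.0873 CPM with young serum and 1.25 ± 0.446 CPM with EV-depleted serum. Its young serum values all lay above saline, at a log2 difference of 0.21 ± 0.15 (limma unadjusted p = 0.193), and it shares exon sequence with Gca on the opposite strand. The accessory subunits Kcne4 and Kcne1l averaged 1.26 and 0.871 CPM with saline, with log2 differences between -0.11 and 0.11.

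The small-conductance calcium-activated genes were all above saline in their means with both sera, none at an unadjusted p under 0.05 with all libraries. Of all genes, 47.5% had a log2 difference above 0 with young serum and 49.6% with EV-depleted serum. Without saline replicate 4 the log2 difference of Kcnn2 with EV-depleted serum was 0.68 (limma unadjusted p = 0.0185). Without both saline replicates 4 and 6 that difference was 0.67 (limma unadjusted p = 0.0383). Kcnn1 averaged 21.5 ± 2.29 CPM with saline, 24.6 ± 1.47 CPM with young serum and 25.0 ± 2.47 CPM with EV-depleted serum (SD, n = 4, 4 and 3). Kcnn3, known for its rise in denervated muscle, averaged 1.51 ± 0.328 CPM with saline, 2.36 ± 1.04 CPM with young serum and 2.34 ± 0.852 CPM with EV-depleted serum. Kcnn2 averaged 1.75 ± 0.792 CPM with saline, 2.41 ± 0.902 CPM with young serum and 2.83 ± 0.644 CPM with EV-depleted serum. Their log2 differences from saline were 0.19 ± 0.11, 0.37 ± 0.25 and 0.31 ± 0.25 with young serum and 0.21 ± 0.12, 0.39 ± 0.27 and 0.51 ± 0.27 with EV-depleted serum. Markers of denervation (6 of 6 in the table) summed to 28.1 to 36.9 CPM with saline, 21.8 to 33.1 CPM with young serum and 23.6 to 30.3 CPM with EV-depleted serum, and the groups overlapped. Kcnn1 and Kcnn2 share exon sequence with opposite-strand genes, so their counts are uncertain.

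Saline replicate 4 had the highest value of the 11 libraries for 20 of the 62 genes, and EV-depleted serum replicate 4 for 17. Among the 31 tested genes these libraries were highest for 6 (19.4%) and 8 (25.8%), against 33.8% and 25.8% of all genes tested. Kcnk3, an acid-sensitive 2-pore-domain channel, stood there at 11.6 CPM against 0.441 to 1.34 CPM in the other 10 libraries. Kcnj15 stood at 9.57 CPM against 0.0779 to 1.17 CPM, and Kcns3, a silent subunit, at 3.15 CPM against 0.181 to 0.754 CPM. Kcnn4, the intermediate-conductance channel of T cells and macrophages, stood at 3.88 CPM against 0.230 to 1.27 CPM, and Kcnh2 at 5.42 CPM against 1.15 to 2.497 CPM. For these genes the mean of the saline group is set by 1 library. The log2 difference of Kcnk3 between young serum and saline was -0.70 ± 0.52 with that library and -0.02 without it, and that of Kcnj15 was -0.44 ± 0.57 and 0.30. For Kcnh2 it was -0.36 ± 0.28 and -0.06. The adipocyte, macrophage and T cell marker sums of this library, given above, were highest there too, and their part was not tested. Saline replicate 6 was the lowest of the 11 libraries for 12 of the 31 tested genes (38.7%, against 32.5% of all genes), EV-depleted serum replicate 3 for 7 (22.6% against 12.7%). The transcript of the giant sarcomere protein Ttn, 1 of the 8 fibre markers, stood at 2157 and 3127 CPM in these 2 libraries. In the other 9 it stood at 5583 to 11085 CPM. Myh4 was lowest in the same 2, at 29701 and 42328 CPM, while Mb was highest there, at 3720 and 3850 CPM. Mylpf was highest in saline replicate 6, at 15985 CPM. All 8 markers summed to 122047 and 129537 CPM, inside the range of the other 9 libraries, 112032 to 152198 CPM. Their part in the low channel values was not tested.

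**Figure D5:**
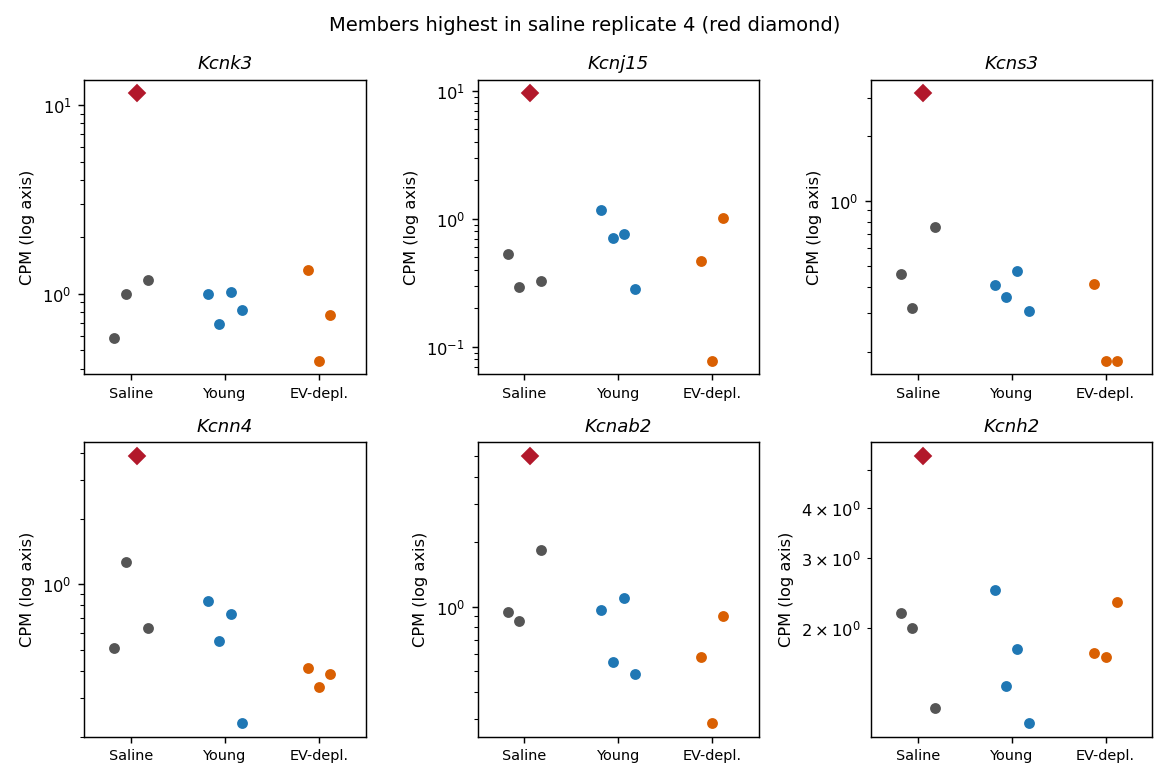
CPM on a log axis of Kcnk3, Kcnj15, Kcns3, Kcnn4, Kcnab2 and Kcnh2 in each library, by group; the diamond marks saline replicate 4. That library is the highest of the 11 for all 6 genes.

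The other 2-pore-domain genes past the filter, which carry leak currents, had groups that overlapped. Kcnk2 averaged 1.32 ± 0.393 CPM with saline, 1.41 ± 0.259 CPM with young serum and 1.86 ± 0.382 CPM with EV-depleted serum (SD, n = 4, 4 and 3). Kcnk6 averaged 1.63 ± 0.661 CPM with saline, 1.37 ± 0.132 CPM with young serum and 1.47 ± 0.387 CPM with EV-depleted serum. Kcnk5 averaged 1.27 ± 0.480 CPM with saline, 0.965 ± 0.304 CPM with young serum and 1.05 ± 0.411 CPM with EV-depleted serum, with saline replicate 4 at 1.99 CPM. Of the 4 tested Kcnk genes 1 was above 0 and 3 below against saline with either serum, and without saline replicate 4 the split was 2 and 2 with either serum. With all libraries none had an unadjusted p under 0.05 in limma. Without saline replicate 4 the log2 difference of Kcnk2 with EV-depleted serum was 0.42 (limma unadjusted p = 0.0237). Without both saline replicates 4 and 6 it was 0.47 (limma unadjusted p = 0.0254). The Kcnk sum was 8.69 ± 7.21 CPM with saline (5.11 ± 0.914 CPM without replicate 4, SD, n = 3, which is below both serum means), 5.41 ± 0.591 CPM with young serum and 6.05 ± 1.48 CPM with EV-depleted serum.

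By family, the tested members were described by their median log2 difference, with no test. Against saline with young serum it was 0.34 for the 4 calcium-activated genes, 0.24 for the 2 silent subunits and 0.07 for the 4 Kcna genes. Without saline replicate 4 these medians were 0.44, 0.29 and 0.24, and without saline replicate 6 they were 0.26, 0.09 and 0.09. The 5 Kcnj genes had a median of -0.19, which was 0.22 without saline replicate 4 and 0.03 without saline replicate 6. The 4 Kcnk genes had -0.16, which was 0.01 and -0.17, so the sign of both families rests on single saline libraries. With EV-depleted serum the Kcnj genes had a median of 0.21, the calcium-activated genes 0.45 and the silent subunits 0.52. Without saline replicate 4 these were 0.16, 0.55 and 0.57, and without saline replicate 6 they were 0.16, 0.37 and 0.37. Young serum minus EV-depleted serum was -0.28 for the silent subunits. Whether families differed from each other was not tested.

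The 31 genes under the filter were read as values only, and 10 of them (Kcnq1, Kcnj3, Kcnk1, Kcng2, Kcnt2, Kcnd3, Kcne3, Kcnmb4, Kcnip4 and Kcnj13) share exon sequence with opposite-strand genes. For 14 the highest library was under 0.5 CPM: Kcng1, Kcnh1, Kcnip2, Kcnip4, Kcnj10, Kcnj13, Kcnj16, Kcnk13, Kcnk7, Kcnmb4, Kcnrg, Kcns1, Kcnt1 and Kcnu1. For 10 it lay between 0.5 and 1 CPM: Kcna10, Kcnc2, Kcnd1, Kcnd3, Kcne3, Kcng2, Kcnip3, Kcnk1, Kcnmb1 and Kcnt2. The other 7, Kcna1, Kcnj14, Kcnj3, Kcnn4, Kcnq1, Kcnq3 and Kcns3, reached 1 CPM in 1 or 2 libraries. Kcnj3, a G-protein-gated inward rectifier, stood at 0.457, 0.0978, 0.166 and 0.151 CPM with saline, 0.764, 0.879, 0.547 and 0.460 CPM with young serum and 1.07, 0.545 and 1.27 CPM with EV-depleted serum. Its EV-depleted serum values were all above saline. Young serum replicate 4, at 0.460 CPM, and saline replicate 2, at 0.457 CPM, were too close to be told apart. The share of genes under the filter with such groups was not counted. The beta subunits that tune Kcnma1, Kcnmb1 and Kcnmb4, reached at most 0.854 and 0.331 CPM, and the Kcnd genes of the A-type current 0.804 and 0.591 CPM.

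The 62 genes lay on 17 chromosomes, with 9 on chromosome 7. Kcna2, Kcna10 and Kcnc4 lay within 0.358 Mb on chromosome 3, where Kcna2 and Kcnc4 had log2 differences of -0.09 and 0.42 between young serum and saline. Kcna5, Kcna1 and Kcna6 lay within 0.208 Mb on chromosome 6, with 0.23 for Kcna5 and -0.13 for Kcna6. In both places neighbours had opposite signs.

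Partners of these channels that carry other symbols were read from a list chosen by function. Of its 15 genes 14 were in the table and 10 were tested, and none passed limma's adjusted p in any comparison. With young serum 2 of 10 were higher at an unadjusted p under 0.05, Abcc9 and Tmem38b, where 10.5% of all genes were. Abcc9, the sulfonylurea receptor that joins Kcnj11 or Kcnj8, stood at 228, 135, 165 and 105 CPM with saline, 254, 268, 215 and 292 CPM with young serum and 203, 163 and 303 CPM with EV-depleted serum. Saline replicate 2 lay inside the range of young serum and the groups overlapped, with a log2 difference of 0.75 ± 0.24 (limma unadjusted p = 0.00861, adjusted p = 0.180). Tmem38b, a cation channel of the sarcoplasmic reticulum, averaged 74.5 ± 11.2 CPM with saline, 93.6 ± 6.08 CPM with young serum and 101 ± 6.05 CPM with EV-depleted serum. Its log2 difference was 0.33 ± 0.11 with young serum and 0.45 ± 0.12 with EV-depleted serum (limma unadjusted p = 0.0129 and 0.00356). With EV-depleted serum Lrrc38, a gamma subunit of Kcnma1, and the pacemaker gene Hcn2 were lower, with log2 differences of -0.44 ± 0.19 and -0.54 ± 0.23 (limma unadjusted p = 0.0394 and 0.0344). Those 2 of 10 stand beside 5.59% of all genes lower there, and Tmem38b, 1 of 10, beside 6.49% higher. Between the sera Hcn4 was higher with young serum, with a log2 difference of 0.85 ± 0.34 (limma unadjusted p = 0.0291), 1 of 10 against 0.478% of all genes. The most abundant partner, Tmem38a, averaged 1238 ± 218 CPM with saline, 1351 ± 39.9 CPM with young serum and 1318 ± 55.4 CPM with EV-depleted serum.

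Other genes of the excitable membrane, sodium, chloride and calcium channels with the sodium pump, were read beside them. Of 16 listed 15 were tested, and none passed limma's adjusted p. At an unadjusted p under 0.05 with young serum 6 were higher and 1 was lower than with saline, against 10.5% and 11.4% of all genes. Scn4a, the muscle sodium channel, stood at 442, 334, 379 and 251 CPM with saline, 548, 598, 489 and 607 CPM with young serum and 468, 365 and 545 CPM with EV-depleted serum. All young serum values lay above all saline values, with a log2 difference of 0.70 ± 0.18 (limma unadjusted p = 0.00195, adjusted p = 0.180). The others were the sodium channel subunit Scn4b, the chloride channel Clcn1, the calcium channel subunits Cacna1s and Cacna2d1, and the scaffold Ank3, with log2 differences of 0.26, 0.51, 0.43, 0.68 and 0.59 and limma unadjusted p of 0.0460, 0.0163, 0.00697, 0.0193 and 0.0127. Fxyd1, a regulator of the pump, was lower, with a log2 difference of -0.42 ± 0.18 (limma unadjusted p = 0.0379). All 6 higher genes had their lowest value of the 11 libraries in saline replicate 6, as did 32.5% of all genes. Fxyd1 had its highest value there, at 385 CPM, as did 14.5% of all genes. The differences of these genes without that library are not given here. With EV-depleted serum 2 were higher, Atp1b1 by 0.75 ± 0.29 and Cacna2d1 by 0.59 ± 0.27 (limma unadjusted p = 0.0233 and 0.0493), 2 of 15 against 6.49% of all genes. Between the sera Atp1b1 was the lower one with young serum, with a log2 difference of -0.64 ± 0.29 (limma unadjusted p = 0.0462), 1 of 15 against 1.75% of all genes. The median log2 difference against saline was 0.15 with young serum and 0.20 with EV-depleted serum, where the 30 channel genes had 0.20 and 0.20.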

How the data were processed

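RNA-seq of 11 muscle libraries was read from 1 gene table. The authors deposited CPM, per the file headers, scaled to 1000000 in each library over the genes of the table with an offset of 0.0001, as read from the values. A deposited TPM table holds the same CPM divided by genomic span, introns included (its totals are 288820), and was not used. Build mm10 and the tools FastQC, STAR and DESeq2 are named in the submitters' processing notes without versions, and counting and strand are not given in the sources used here. Between 0.01 and 1 CPM, 75.5% to 78.8% of values were whole reads within 0.1 reads, too few to rebuild counts, so no count test was run.

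The 13187 of 18269 genes that reached 1 CPM in 3 or more libraries were analysed as log2(CPM + 1), which understates differences of low genes. limma 3.58.1 in R 4.3.3 fitted 3 groups in 1 model over 11 libraries, with eBayes and a mean-variance trend, two-sided, with Benjamini-Hochberg adjustment over all genes at 0.05. On simulated data with 200 changed genes in 13187 the same fit recovered 68% (young serum against saline), 60% (EV-depleted serum against saline) and 62% (between the sera) of log2 changes of 1. The simulation gave each gene 1 SD in all groups and independent normal noise, whereas the spread of the real groups differed. A log2 change of 1 is larger than every member difference in the fit reported here, so recovery of differences that size was not measured. The members and lists were chosen with earlier results of these data known. Values by library are given for the 10 members with the highest mean CPM, Kcnc1, Kcnc2, Kcnc4 and members with an unadjusted p under 0.05, and group values for all other tested members, except that some items are not reported here. Exon lengths and overlaps came from GENCODE M21, whose starts matched for 61 of 62 genes, and promoters from RefSeq on GRCm38.p6. Alternatives changed the pseudocount, filter, scaling, libraries, weights, model and block. Replicates of 1 group correlated at 0.938 to 0.991 over genes and none were duplicates. Figures were drawn with matplotlib 3.10.9.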

Additional observations from a re-analysis of the deposited data

Results flagged for a closer look

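In groups of 4, a library was singled out when its gap to the nearest other, divided by the group's range, passed Dixon's 95% critical value for 4 samples. The genes read were the 31 tested, the 7 under the filter that reached 1 CPM in a library, and Kcnc2. Over 78 groups tested 7 passed. Kcnj14 and Kcns3 reached 1 CPM only in saline replicate 4, the library flagged, so their passing was favoured by the choice of genes. The count of 7 is for that reason not set against chance. In saline replicate 4, Kcnk3 stood at 11.6 CPM against 0.583 to 1.18 CPM in the other saline libraries and Kcnj15 at 9.57 CPM against 0.293 to 0.533 CPM. Kcns3 stood at 3.15 CPM against 0.318 to 0.754 CPM, Kcnk5 at 1.99 CPM against 0.953 to 1.11 CPM, Kcna6 at 1.51 CPM against 0.737 to 0.855 CPM and Kcnj14 at 1.02 CPM against 0.0755 to 0.122 CPM. In saline replicate 6, Kcnj8 stood at 27.7 CPM against 13.8 to 15.3 CPM. All 7 were in the saline group, and none in the young serum group.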

How the results depend on the processing

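Under the 20 alternatives no member with an unadjusted p under 0.05 changed sign, while the median between the sera, near 0, did. With array weights, which gave saline replicates 4 and 6 weights of 0.208 and 0.295, members at an unadjusted p under 0.05 were 7, 13 and 6 for young serum against saline, EV-depleted serum against saline and between the sera (4, 2 and 1 in the report), beside 41.8%, 34.0% and 13.6% of all genes, and genes at an adjusted p under 0.05 were 3441, 1794 and 24 (0 in the report). Adjusted p in limma with young serum was then 0.00703 for Kcna7, 0.0114 for Kcnj12 and 0.0088 for Kcnma1. It was 0.0439 for Kcna5, 0.0423 for Kcnn2 and 0.0398 for Kcnq5. With EV-depleted serum it was 0.0092 for Kcna7, 0.0218 for Kcnn2, 0.0229 for Kcnma1, 0.0285 for Kcng4 and 0.0447 for Kcnj12. The log2 difference of Kcnc1 with EV-depleted serum was 0.75. Under the same weights Kcnab1 with young serum was 0.35 (limma unadjusted p = 0.111) and Kcnab2 with EV-depleted serum -0.37 (unadjusted p = 0.101). Without a filter the member counts were 8, 5 and 4 of 61 (18.0%, 10.6% and 2.29% of all genes), and the medians against saline 0.0325 and 0.0334. With a filter at 5 CPM, which leaves 16 members, the median with young serum was 0.41, and EV-depleted serum gave 1 member (13.0% of all genes) and 3 genes. A fit on the compared groups alone gave 1 member with EV-depleted serum (6.01% of all genes) and 3 between the sera (4.81%). Without both saline replicates 4 and 6 the counts were 1 member with young serum (9.68% of all genes), 2 genes with EV-depleted serum and 3 members between the sera (5.09%). Leaving out 1 library at a time gave 4 to 9, 2 to 7 and 0 to 3 members, medians of 0.11 to 0.22, 0.08 to 0.30 and -0.14 to 0.15, and 0 to 251, 0 to 5 and 0 to 0 genes, with the 251 and the 5 both without saline replicate 2. The cause of these shifts was not tested.

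Deviations of same-numbered libraries correlated at -0.277 to 0.2998, so the numbers were not taken as pairs. A fit with the replicate number as a block gave 4, 3 and 2 members (beside 15.0%, 10.5% and 3.98% of all genes), and 6 genes with EV-depleted serum against saline.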
